A study of Mus musculus with 15 samples.

Results

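Transcript levels of 10 genes for transcription factors of skeletal and craniofacial mesenchyme were followed in mouse brown preadipocytes treated with fibroblast growth factors (FGFs): Runx1, Runx2, Runx3, Cbfb, Sox9, Twist1, Twist2, Msx1, Msx2 and Prrx1. They are 10 of the 29072 genes with a symbol in the deposited table, and each was taken at its transcript line of highest mean RPKM across the 15 libraries. The genes were picked by name with earlier results of these data known, so the tests below describe them and are not independent support for the choice. Levels are RPKM, the reads of a line scaled to its length in kilobases and to the library's depth. Of the 10 genes, 8 reached 0.5 RPKM in at least 3 libraries and entered the tests, and all 8 were above this level in every library. Msx1 was the lowest gene inside this limit, with 0.587 RPKM in its lowest library, and Runx3 was the highest outside it, with 0.366 RPKM in its highest library. Msx2 lay far below.

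The cells were brown preadipocytes from the stromal-vascular fraction of interscapular brown fat of 129SvEv mice, immortalised with the SV40 large T antigen, which all 5 groups carry. The groups of 3 libraries were control cells and cells given 5.56 nM FGF1, FGF8b or FGF9 for 48 h, or FGF8b and 2 µM BAY-876, which blocks glucose uptake through the transporter GLUT1. By the series text every FGF came with 1 µg/ml heparin, a cofactor of FGF binding to its receptors, whereas the sample labels name it for FGF9 only. The control label names neither heparin nor a time, and no sample had heparin alone or BAY-876 alone, so an effect of BAY-876 is measured only on top of FGF8b. A single immortalised preparation limits what the values say of fat tissue, and it is not labelled whether the 3 libraries per group were separate cultures. The p-values therefore measure only the spread between these samples, which may be technical. In bulk RNA, fewer cells of a type and less RNA per cell cannot be told apart.

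RUNX1, RUNX2 and RUNX3 share a DNA-binding Runt domain and bind DNA tightly only as a dimer with CBFβ, the product of Cbfb. RUNX1 is known from blood stem cells, RUNX2 is the master regulator of osteoblasts, the bone-forming cells, and RUNX3 acts in T cells, sensory neurons and cartilage. SOX9 is the high-mobility-group factor that commits mesenchyme to cartilage. TWIST1 and TWIST2 are basic helix-loop-helix factors that pair with E proteins, hold mesenchymal cells in an undifferentiated state and restrain RUNX2. MSX1, MSX2 and PRRX1 are homeodomain factors of limb, tooth and skull mesenchyme. PRRX1 is widely used as a mark of mesenchymal progenitors, and TWIST1 and PRRX1 have also been studied in fat precursors. FGF signals act on this network in the growing skeleton, where mutations of FGF receptors and of TWIST1 both cause early fusion of skull sutures.

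In GRCm38 with the GENCODE vM21 annotation, Runx1 lies on chromosome 16 from 92601466 to 92826149 (minus strand), Runx2 on chromosome 17 from 44495987 to 44814797 (minus strand) and Runx3 on chromosome 4 from 135120652 to 135177990 (plus strand). Cbfb lies on chromosome 8 from 105170674 to 105217989, Sox9 on chromosome 11 from 112782224 to 112787760 and Twist1 on chromosome 12 from 33957671 to 33959829, all on the plus strand. Twist2 and Prrx1 share chromosome 1, at 91801461 to 91848028 (plus strand) and 163245119 to 163313710 (minus strand). Msx1 is on chromosome 5 from 37820485 to 37824583 and Msx2 on chromosome 13 from 53466884 to 53473074, both on the minus strand. The library kit named in the labels does not mark the strand, so reads of a gene and of an overlapping gene on the opposite strand cannot be told apart. Such overlaps exist for Runx2 with 4 genes (Supt3 and 3 Runx2 antisense RNAs) and for Runx1, Runx3, Twist2 and Prrx1 with 1 antisense gene each. The annotation lists none for Cbfb, Sox9, Twist1, Msx1 and Msx2.

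RUNX genes are each read from a distal and a proximal promoter, and start regions of the RUNX genes are shown. All 3 genes were higher in every FGF library than in any control library. For Runx2 the margin was narrow, with 4.81 RPKM in the lowest FGF8b library and 4.74 in the highest control library. The share of all genes with this pattern was not counted. Against control, 19.3% of tested genes were called higher under FGF1, 37.8% under FGF8b and 38.7% under FGF9. The sequences are from RefSeq promoter entries on GRCm38.p6, given 5′ to 3′ on the gene's strand, with matches to the motifs searched in capitals. In the Runx2 site the capitals mark the RUNX core only. The proximal Runx1 start lies inside the gene body, in an intron of the longer transcripts. The Runx2 stretch is a short site around a motif match, and it too lies inside the annotated gene, past its first exon base.
Runx1 proximal, chr16:92697330-92697579, minus strand: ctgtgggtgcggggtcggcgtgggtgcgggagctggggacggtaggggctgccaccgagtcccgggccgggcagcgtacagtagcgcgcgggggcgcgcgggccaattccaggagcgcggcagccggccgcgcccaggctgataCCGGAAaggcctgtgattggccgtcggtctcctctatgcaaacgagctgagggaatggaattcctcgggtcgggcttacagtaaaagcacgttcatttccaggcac
Runx1 distal, chr16:92826150-92826324, minus strand: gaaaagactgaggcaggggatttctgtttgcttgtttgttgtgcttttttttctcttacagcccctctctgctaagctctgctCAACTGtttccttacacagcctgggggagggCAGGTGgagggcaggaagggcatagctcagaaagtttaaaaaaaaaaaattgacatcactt
Runx3 distal, chr4:135120395-135120644, plus strand: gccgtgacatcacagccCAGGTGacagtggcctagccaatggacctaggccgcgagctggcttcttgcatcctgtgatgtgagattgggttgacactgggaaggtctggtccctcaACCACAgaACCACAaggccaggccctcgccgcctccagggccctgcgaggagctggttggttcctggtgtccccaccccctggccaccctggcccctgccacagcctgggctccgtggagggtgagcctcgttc
Runx2 site, chr17:44814690-44814719, minus strand: gtgaggtcacaaACCACAtgattctgtctc

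Both strands of the 250 bases before each start were searched in 11 windows of 9 of the 10 genes, and the same length in 32851 RefSeq promoters. The RUNX core TGTGGT, which reads ACCACA on the other strand, was in 2 of the 11 windows and in 14% of all promoters. It occurred in the Runx2 window, where its first letter is 80 bases before the RefSeq start but inside the annotated gene. In the Runx3 distal window 2 copies begin 134 and 126 bases before the start. The ETS core CCGGAA was in 1 window, Runx1 proximal, 106 bases before the start, and in 12% of all promoters. The E-box CANNTG, the site class of TWIST and E proteins, was in 5 windows and in 66.2% of all promoters. In Runx2 an E-box overlaps the RUNX core. The AP-1 site TGANTCA and the composite ATF4 and C/EBP site TGATGNAA had 0 matches in these windows, against 6.75% and 3.45% of all promoters. These matches are descriptions of letters and not measured binding.

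Library depth, inferred from the spacing of low values, was 27.01 to 42.6 M reads. FGF1 was shallowest at 27.01 to 32.0 M, and FGF9 was at 37.3 to 41.6 M. Changes are log2 fold changes of RPKM + 0.5 between group means, from 1 limma fit over 15 libraries and 13869 genes, with p-values adjusted over all of these by Benjamini-Hochberg. The added 0.5 understates the change of low genes such as Runx1 and Msx1. Treatment touched much of the transcriptome, so the counts of these genes are given with the share of all tested genes called in that comparison. Across the 5 groups, limma's F-test called all 8 tested genes, with Msx1 the weakest (adjusted p = 0.00335), and it called 86.7% of all genes.

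Runx1 rose under every FGF and most under FGF1 and under FGF8b with BAY-876. Control libraries held 1.29, 1.00 and 1.4 RPKM, and FGF1 libraries 9.13, 8.93 and 9.64. FGF8b libraries stood at 2.90, 2.73 and 3.09 RPKM, FGF9 libraries at 3.39, 2.94 and 3.19, and FGF8b plus BAY-876 libraries at 7.90, 8.02 and 7.91. The groups fell into a ladder of control, then FGF8b and FGF9 overlapping each other, then FGF8b plus BAY-876, then FGF1, with no overlap between the other neighbours. The mean went from 1.23 ± 0.203 RPKM (SD, n = 3) in control to 9.23 ± 0.367 in FGF1, a ratio of means of 7.50. On the log2 scale this was 2.50 (SE 0.089, limma adjusted p = 2.49e-11), larger in size than the changes of 99.8% of the tested genes, and voom, which adds 0.5 to the recovered reads and not to the RPKM, gave 2.91. FGF8b raised Runx1 by 0.98 (adjusted p = 1.01e-07) and FGF9 by 1.09 (adjusted p = 2.73e-08), and these 3 comparisons share the control libraries. Adding BAY-876 to FGF8b raised it by a further 1.31 (adjusted p = 7.53e-09), from 2.91 ± 0.180 to 7.95 ± 0.063 RPKM (SD, n = 3).

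Runx2 rose mainly under FGF1. Its control libraries held 4.15, 3.95 and 4.74 RPKM and its FGF1 libraries 7.19, 7.61 and 8.77. The FGF8b libraries were at 5.30, 4.81 and 5.20, the FGF9 libraries at 5.01, 4.98 and 5.57, and those with BAY-876 at 6.12, 4.92 and 5.51. FGF1 stood alone at the top, the other FGF groups overlapped one another, and the control libraries lay below them all. FGF1 raised Runx2 by 0.80 on the log2 scale (SE 0.096, limma adjusted p = 8.20e-06). The rises under FGF8b (0.23, adjusted p = 0.0455) and FGF9 (0.25, adjusted p = 0.0309) passed the threshold narrowly. The FGF8b call was lost in voom (adjusted p = 0.0638), without the filter (0.0678), with only the 2 groups (0.0576), with trimmed-mean scaling (0.131) and without control replicate 1 (0.108), control replicate 2 (0.158), FGF8b replicate 1 (0.122) or FGF8b replicate 3 (0.1002). The FGF9 call was lost with that scaling (adjusted p = 0.101), with only the 2 groups (0.0531) and without control replicate 1 (0.0789), control replicate 2 (0.117) or FGF9 replicate 3 (0.118). Summed over all its lines, Runx2 rose by 0.41 under FGF8b (adjusted p = 0.000738) and by 0.56 under FGF9 (adjusted p = 3.72e-05), and its highest RefSeq line rose by 0.39 under FGF9 (adjusted p = 0.00019). BAY-876 moved Runx2 by 0.10 on top of FGF8b (adjusted p = 0.396, 95% interval -0.11 to 0.31).

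Runx3 was rare, with 15 reads over the 3 control libraries. FGF1 libraries held 43 reads, FGF8b libraries 27, FGF9 libraries 37 and those with BAY-876 68. Its levels were 0.0271, 0.0897 and 0.0881 RPKM in control and 0.177, 0.297 and 0.224 in FGF1. They were 0.152, 0.106 and 0.1504 in FGF8b, 0.177, 0.125 and 0.140 in FGF9, and 0.230, 0.271 and 0.366 with BAY-876. Every control library lay below every FGF library, while neighbouring FGF groups overlapped. The ratio of levels to control was 3.37 for FGF1 (exact 95% interval 1.84 to 6.53) and 4.32 for FGF8b plus BAY-876 (2.44 to 8.14). FGF8b with BAY-876 had 2.19 times the level of FGF8b (1.39 to 3.57). These intervals cover counting error only, since reads of the 3 libraries were pooled and the spread between libraries is left out. The reads also carry no molecular identifiers. Runx3 did not enter the tests. In a limma fit without the filter on low values, over 22810 genes, adjusted p was 0.00262 for FGF1, 0.0938 for FGF8b and 0.0530 for FGF9 against control, and 0.00459 for BAY-876 on top of FGF8b.

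Cbfb, the shared partner of the 3 RUNX proteins, rose to nearly one level under all FGF treatments. Control libraries held 40.4, 41.1 and 42.7 RPKM, and the 12 FGF libraries spanned 61.4 to 71.8. The 4 FGF groups overlapped, and none of their libraries came down to control. The mean rose from 41.4 ± 1.2 RPKM (SD, n = 3) to 68.0 ± 1.27 under FGF1, 64.2 ± 3.15 under FGF8b, 67.3 ± 4.0 under FGF9 and 67.7 ± 1.43 with BAY-876 added. The log2 changes against control were 0.71 (adjusted p = 4.66e-08), 0.63 (3.78e-08), 0.69 (1.01e-08) and 0.70 (5.95e-09) in the same order. BAY-876 moved Cbfb by 0.08 on top of FGF8b (adjusted p = 0.220, 95% interval -0.04 to 0.19). That difference passed only after trimmed-mean scaling (0.15, adjusted p = 0.0317).

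**Figure D1:**
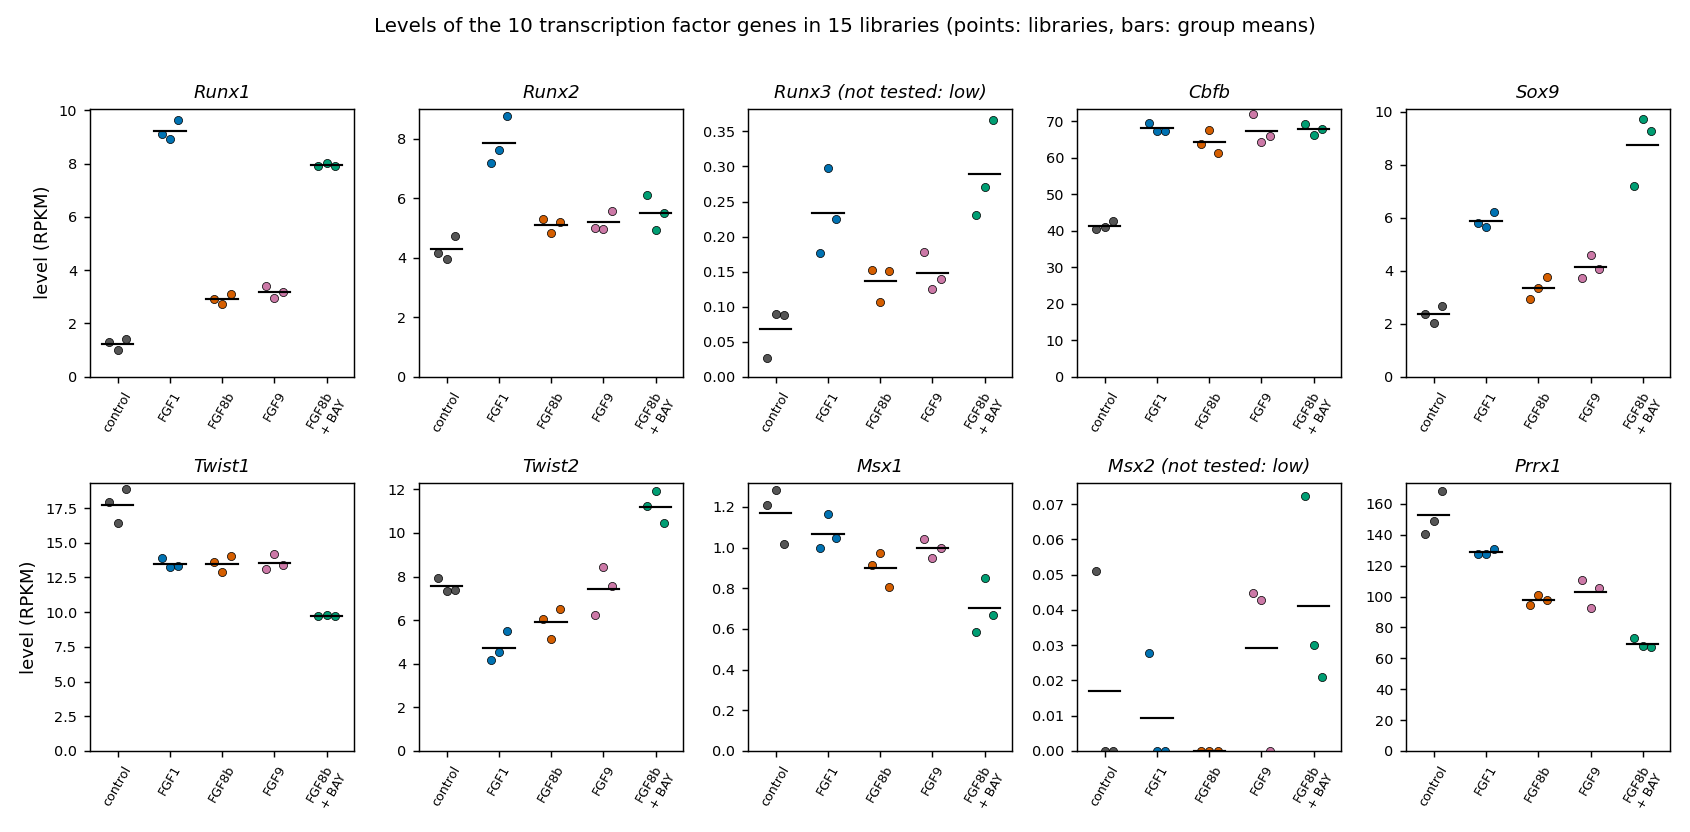
RPKM of the 10 genes in each of the 15 libraries, by group, with the group mean, 1 panel per gene. Runx1 is at 8.93 to 9.64 in FGF1 and 1.00 to 1.4 in control, Twist2 is highest with BAY-876 (10.5 to 11.9), and Prrx1 falls from 140.4 or more in control to 72.9 or less with BAY-876.

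The make-up of the RUNX transcripts shifted from Runx2 towards Runx1. RPKM is per length, so levels of the 3 genes can be added: the sum was 5.58 RPKM for control, 17.3 for FGF1, 8.15 for FGF8b, 8.51 for FGF9 and 13.8 for the BAY-876 libraries. Runx1 made up 22.0 ± 1.87% of it in control (SD, n = 3). FGF1 gave 53.4 ± 1.83%, FGF8b 35.7 ± 0.932%, FGF9 37.3 ± 1.95% and BAY-876 57.8 ± 2.65%. Runx2, the larger part in control at 76.8%, was 45.3% of the sum in FGF1 and 40.1% with BAY-876, while its own level was above control in both. Runx3 stayed between 1.23% and 2.11% on average. Cbfb transcripts outnumbered the RUNX sum 7.46 to 1 in control, 7.91 to 1 under FGF8b and 7.92 to 1 under FGF9, but 3.94 to 1 in FGF1 and 4.92 to 1 with BAY-876. With the highest RefSeq line of each gene, chosen after the data were seen, the Runx1 share was 24.5, 56.0, 36.7, 38.3 and 59.1% in the same order of groups. The shares and ratios are descriptions of transcript and carry no test.

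**Figure D2:**
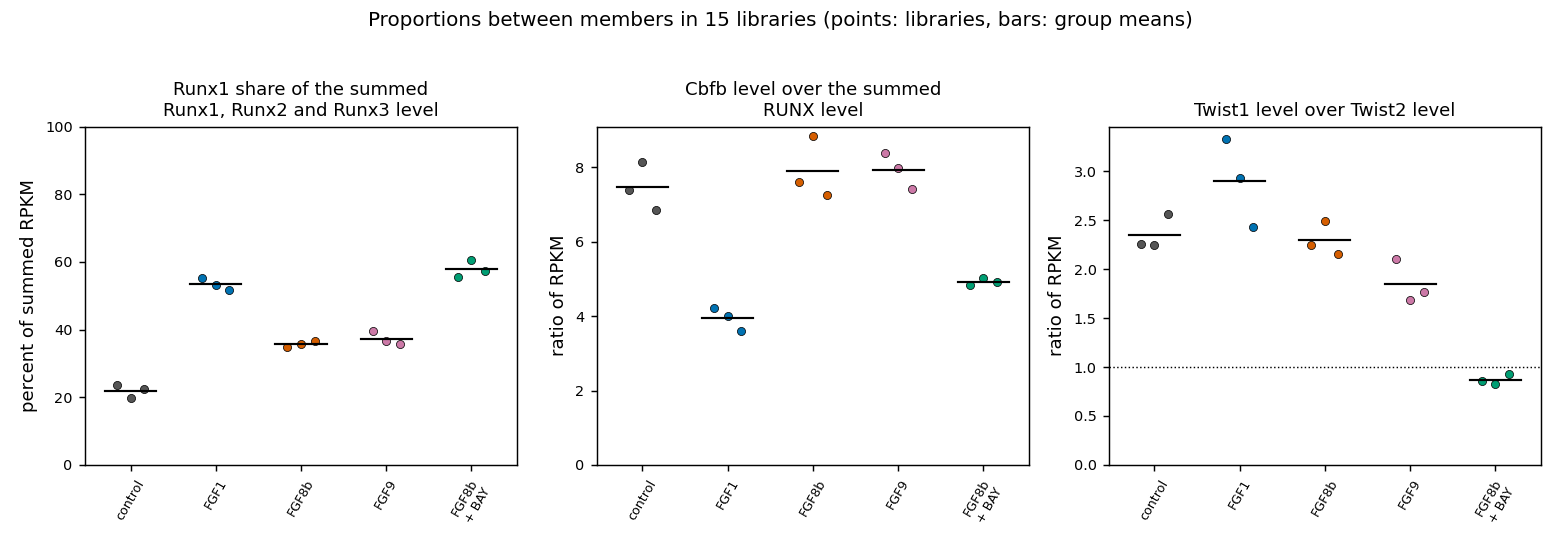
Runx1 as a percentage of the summed Runx1, Runx2 and Runx3 RPKM, Cbfb RPKM over that sum, and Twist1 RPKM over Twist2 RPKM, in each library by group. The Runx1 share is 19.9 to 23.5% in control and 55.4 to 60.7% with BAY-876, and the Twist1 to Twist2 ratio is 0.824 to 0.927 with BAY-876.

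Sox9 rose under all 3 FGFs and was highest with BAY-876. Control libraries held 2.38, 2.02 and 2.67 RPKM, FGF1 libraries 5.79, 5.65 and 6.20, and FGF8b plus BAY-876 libraries 7.19, 9.73 and 9.27. FGF8b libraries were at 2.94, 3.35 and 3.76 and FGF9 libraries at 3.72, 4.60 and 4.07. FGF8b and FGF9 overlapped just above control, FGF1 lay clear of them, and all libraries with BAY-876 lay above FGF1. FGF1 raised Sox9 from 2.36 ± 0.325 to 5.88 ± 0.289 RPKM (SD, n = 3), a log2 change of 1.17 (SE 0.12, adjusted p = 1.84e-06). FGF8b raised it by 0.43 (adjusted p = 0.00540) and FGF9 by 0.70 (adjusted p = 9.87e-05). BAY-876 raised it by 1.26 on top of FGF8b (adjusted p = 3.67e-07), to 8.73 ± 1.35 RPKM.

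Twist1 and Twist2, close relatives with the same partners, moved apart when BAY-876 was added. Twist1 held 17.9, 16.4 and 18.9 RPKM in control, and the 9 libraries of FGF1, FGF8b and FGF9 spanned 12.9 to 14.2. With BAY-876 it was at 9.69, 9.82 and 9.70. The 3 FGF groups overlapped below control, and every library with BAY-876 was lower still. The log2 change against control was -0.38 for each of FGF1 (adjusted p = 0.000153), FGF8b (5.38e-05) and FGF9 (5.86e-05). BAY-876 lowered Twist1 further, by a log2 change of -0.45 (adjusted p = 1.42e-05).

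Twist2 libraries were at 7.94, 7.33 and 7.36 RPKM in control, 4.16, 4.52 and 5.50 in FGF1, and 6.06, 5.15 and 6.51 in FGF8b. They were at 6.23, 8.44 and 7.57 in FGF9 and at 11.2, 11.9 and 10.5 with BAY-876. The libraries with BAY-876 stood above all others, FGF9 straddled control, and FGF1 and FGF8b lay below control and overlapped each other. Twist2 changed by -0.63 under FGF1 (SE 0.115, adjusted p = 0.000479) and by -0.33 under FGF8b (adjusted p = 0.0186). The FGF8b call was lost without control replicate 1 (adjusted p = 0.0607) or FGF8b replicate 2 (0.0955). Under FGF9 its change was -0.03 (adjusted p = 0.813, 95% interval -0.29 to 0.22). BAY-876 raised Twist2 by 0.87 on top of FGF8b (adjusted p = 9.78e-06), and its level was 0.54 above control on the log2 scale (adjusted p = 0.000549). The mean ratio of Twist1 to Twist2 was 2.35 for control, 2.90 for FGF1, 2.30 for FGF8b, 1.85 for FGF9 and 0.871 once BAY-876 was added. On the highest RefSeq lines it was 2.85, 3.56, 2.79, 2.26 and 1.06, so which of the pair is higher with BAY-876 depends on the transcript line while the drop does not.

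Msx1 was low, and of the comparisons with control its difference was largest with BAY-876. Its libraries were at 1.21, 1.28 and 1.02 RPKM in control, 0.998, 1.16 and 1.05 in FGF1, and 0.916, 0.975 and 0.808 in FGF8b. They were at 1.04, 0.948 and 0.996 in FGF9 and 0.587, 0.849 and 0.670 with BAY-876. Neighbouring groups all overlapped, and the libraries with BAY-876 lay below those of control, FGF1 and FGF9. The change was -0.09 under FGF1 (adjusted p = 0.540, 95% interval -0.31 to 0.13) and -0.16 under FGF9 (adjusted p = 0.178, interval -0.38 to 0.06). Under FGF8b it was -0.25 (adjusted p = 0.0355), a call lost in voom (adjusted p = 0.0691), with only the 2 groups (0.0705) and without control replicate 1 (0.0886), control replicate 2 (0.125), FGF8b replicate 1 (0.0617) or FGF8b replicate 3 (0.120). BAY-876 on top of FGF8b changed it by -0.22 (adjusted p = 0.0660), which passed without the BAY-876 replicate 2 (-0.31, adjusted p = 0.0199), with summed lines (0.0404) and with the highest RefSeq line (0.0288). Against control, FGF8b plus BAY-876 was lower (log2 change -0.48, adjusted p = 0.000460), with a ratio of means of 0.599. voom gave larger changes for this low gene, -0.75 against control (adjusted p = 0.000658) and -0.40 on top of FGF8b (adjusted p = 0.0713).

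Msx2 had 2 reads over the 3 control libraries, 1 over those of FGF1, 0 for FGF8b, 4 for FGF9 and 5 for FGF8b plus BAY-876. Its highest library held 0.0724 RPKM, and 0 reads over the FGF8b libraries allow up to 0.0283 RPKM. A difference in Msx2 was not detectable at this depth.

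Prrx1, by far the most abundant of the homeodomain genes here, fell under every treatment. Control libraries held 140.4, 148.7 and 168.6 RPKM, FGF1 libraries 127.5, 127.8 and 131.0, and FGF8b libraries 94.4, 101.1 and 98.0. FGF9 libraries were at 110.7, 92.5 and 105.8, and those with BAY-876 at 72.9, 68.0 and 67.3. The order was control, FGF1, FGF9 and FGF8b overlapping, then FGF8b plus BAY-876, with no overlap elsewhere in that order. FGF1 changed Prrx1 by -0.24 (SE 0.071, adjusted p = 0.0163), a call lost without control replicate 3, the highest library (-0.17, adjusted p = 0.0807). FGF8b changed it by -0.63 (adjusted p = 1.2e-06) and FGF9 by -0.56 (adjusted p = 4.07e-06). BAY-876 changed it by a further -0.49 (adjusted p = 2.69e-05), so that 69.4 ± 3.07 RPKM remained of 152.6 ± 14.5 in control (SD, n = 3), a ratio of 0.455.

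**Figure D3:**
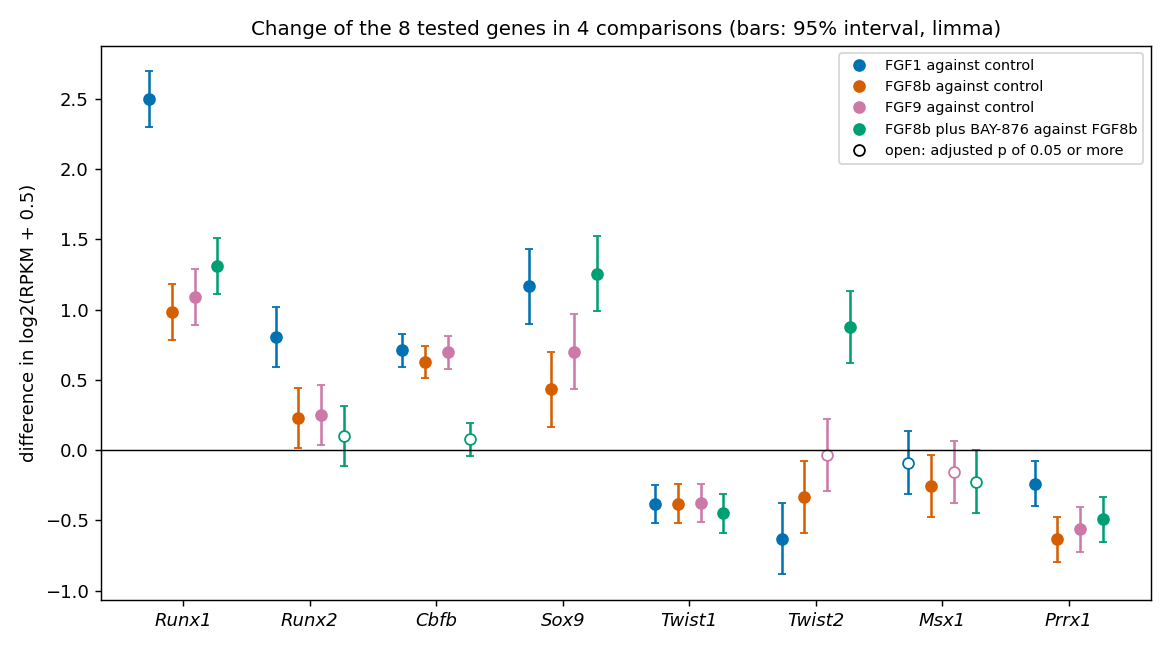
Log2 change of the 8 tested genes in 4 comparisons with limma's 95% interval. Filled points passed an adjusted p of 0.05 and open points did not. Runx1 and Sox9 lie above 0 in each comparison, Twist1 and Prrx1 below, and Twist2 lies above 0 only for BAY-876 on top of FGF8b.

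By comparison, FGF1 against control called 7 of the 8 tested genes, 4 higher (Runx1, Runx2, Cbfb and Sox9) and 3 lower (Twist1, Twist2 and Prrx1), where 34.4% of all genes were called, 19.3% higher and 15.1% lower. FGF8b against control called 8 of 8, with Twist2 and Msx1 among 4 lower and 4 higher, against 64.4% of all genes (37.8% higher and 26.6% lower). FGF9 against control called 6 of 8, the same 4 higher and Twist1 and Prrx1 lower, against 65.7% of all genes (38.7% higher and 27% lower). BAY-876 on top of FGF8b called 5 of 8, with Runx1, Sox9 and Twist2 higher and Twist1 and Prrx1 lower, against 57.3% of all genes (22.5% higher and 34.8% lower). With shares this large under FGF8b and FGF9, the counts alone do not set these genes apart. Under FGF1, where fewer genes were called, Runx1 and Sox9 had changes larger in size than those of 99.8% and 97.2% of tested genes.

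FGF8b plus BAY-876 against control called 8 of 8 genes, against 72.7% of all genes (36.8% higher and 35.9% lower), with Runx1 at 2.29 (adjusted p = 2.09e-12), Sox9 at 1.69 (3.70e-09), Twist1 at -0.83 (5.46e-09) and Prrx1 at -1.13 (8.38e-10). The level of Runx1 with BAY-876 thus stood 6.46 times above control, against 7.50 times for FGF1. FGF8b differed from FGF1 in 5 of 8 genes, against 59.9% of all genes (33.3% higher and 26.6% lower). Runx1 was lower in FGF8b by a log2 difference of -1.51 (adjusted p = 8.11e-10), Sox9 by -0.73 (7.77e-05), Runx2 by -0.57 (9.32e-05) and Prrx1 by -0.39 (0.000189). Twist2 was higher by 0.30 (adjusted p = 0.0362) although its libraries overlapped. That call was lost in voom (0.0672), without the filter (0.0654), with trimmed-mean scaling (0.0567) and without FGF1 replicate 1 (0.155), FGF1 replicate 2 (0.0979), FGF8b replicate 1 (0.0930) or FGF8b replicate 3 (0.138). Twist1 differed by 0.00 (adjusted p = 0.993, 95% interval -0.14 to 0.14). By either reading of the labels, FGF1 and FGF8b did not differ in heparin.

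Between FGF9 and FGF8b no difference in these genes passed the threshold. In limma 0 of the 8 genes passed, against 0.296% of all genes (0.202% higher and 0.0937% lower), 2 had an unadjusted p under 0.05, and voom also called 0. Those with the lowest p were Twist2, 0.30 higher in FGF9 (unadjusted p = 0.0189, adjusted p = 0.543), and Sox9, 0.27 higher (unadjusted p = 0.0418, adjusted p = 0.683). The 95% interval of the difference was -0.09 to 0.31 for Runx1, -0.19 to 0.23 for Runx2 and -0.05 to 0.18 for Cbfb. Whether heparin differed between these groups is not settled by the labels.

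The table gives 79 transcript lines for the 10 genes, from 1 for Twist1 to 18 for Runx2, and lines of a gene share reads. Ranges are given over lines with a mean of at least 0.5 RPKM, which were 10 of 13 for Runx1, 15 of 18 for Runx2, 4 of 5 for Msx1, 0 for Runx3 and Msx2, and all lines of the other genes. Over these, the change under FGF1 ranged from 2.15 to 2.50 for Runx1, from 1.02 to 1.17 for Sox9 and from 0.67 to 1.03 for Runx2. On top of FGF8b, BAY-876 changed the lines of Runx1 by 1.23 to 1.36 and of Twist2 by 0.53 to 0.87. Those of Prrx1 changed by -0.78 to -0.32. The added 0.5 shrinks the values of low lines. Under FGF1 the Runx1 line at 2.15 went from 0.502 to 3.93 RPKM, against 1.23 to 9.23 for the line used. The Twist2 line at 0.53 went from 0.372 to 0.760 RPKM with BAY-876, against 5.90 to 11.2 for the line used. On the same scale, the 3 Runx1 lines below 0.5 RPKM changed by 0.02 to 0.15 under FGF1 and by 0 to 0.03 with BAY-876. Their group means were at most 0.0602 RPKM, where the added 0.5 keeps any change near 0. The 3 Runx2 lines below 0.5 RPKM changed by 0.01 to 0.47 under FGF1.

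Counts of the gene lists that follow stand against the whole fit. There 19.3% of all genes were higher and 15.1% lower under FGF1 (median log2 change 0.02), 37.8% and 26.6% under FGF8b (median 0.08), and 38.7% and 27% under FGF9 (median 0.09). BAY-876 on top of FGF8b left 22.5% higher and 34.8% lower (median -0.08). RUNX proteins work with coactivators and corepressors, and 22 of 22 such genes on the list were tested. Under FGF1 6 were higher and 1 lower (median log2 change 0.10). Wwtr1, which encodes the Hippo coactivator TAZ, rose from 23.0 to 32.2 RPKM (0.49), and the deacetylase Hdac1 from 93.9 to 120.9 (0.36). Under FGF8b 9 were higher and 7 lower, with a median of 0.04 that became -0.03 after trimmed-mean scaling. Under FGF8b the Groucho corepressors Tle1 and Tle2, partners of RUNX proteins, fell from 9.57 to 3.60 RPKM (-1.30) and from 6.75 to 1.88 (-1.67), while Wwtr1 rose to 48.7 (1.08). FGF9 gave 10 higher and 7 lower, with Tle1 at 2.40 RPKM (-1.80) and Wwtr1 at 58.4 (1.33). On top of FGF8b, BAY-876 gave 8 higher and 6 lower (median 0.13). Tle1 returned to 7.70 RPKM (0.98), Smurf1, a ubiquitin ligase for RUNX2 and SMAD proteins, rose from 23.8 to 40.2 (0.75), and Hdac1 fell from 108.6 to 58.5 (-0.89).

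Osteoblast genes, many of them known RUNX2 targets, did not move as 1 block. Of 25 on the list 17 were tested. FGF1 left 4 higher and 3 lower (median 0.06), FGF8b 6 higher and 9 lower (median -0.40), FGF9 6 higher and 9 lower (median -0.33), and BAY-876 on top of FGF8b 3 higher and 10 lower (median -0.39). In voom the last 3 medians were -0.79, -0.63 and -0.69. Scaling took the 6 higher under FGF8b to 4, and voom to 5. Spp1, the secreted phosphoprotein osteopontin, rose from 31.3 RPKM in control to 291.8 under FGF1 (3.20), 3301 under FGF8b (6.70) and 3686 under FGF9 (6.86), and fell to 939 with BAY-876 (-1.82 against FGF8b). Some other genes of the list went the other way under FGF8b. Postn, the matrix protein periostin, fell from 2378 to 198.6 RPKM (-3.58), and Col1a1, the chief collagen of bone, from 432.7 to 85.2 (-2.34) and on to 9.66 with BAY-876 (-3.08). Tnfrsf11b, the decoy receptor osteoprotegerin, rose under FGF1 from 1.24 to 5.66 RPKM (1.83). Of the genes that define osteoblasts, Ibsp was listed at 0 in every library and Sp7 reached 0.158 RPKM at most. Bglap was low, at 0.589 RPKM in control and 0.151 under FGF8b, with 0.900 in its highest library. Bglap2 was at 0.672 and 0.192 in these groups, and Alpl at 0.537 and 0.579.

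Of 24 cartilage genes, many of them known SOX9 targets, only 5 were tested, so most were at or near 0. Col9a1 was listed at 0 in every library, Acan reached 0.00872 RPKM at most, Sox6 0.0686 and Col2a1 0.155. Under FGF1 3 of the 5 were higher and 1 lower (median 0.67). Cilp, a cartilage matrix protein, went from 2.86 to 53.8 RPKM (4.01), Sox5, a partner of SOX9, from 0.830 to 1.66 (0.70) and the collagen Col11a1 from 1.79 to 3.08 (0.67), while Fmod, the matrix proteoglycan fibromodulin, fell from 0.745 to 0.312 (-0.61). FGF8b left 1 higher and 2 lower, with Col11a1 at 0.450 (-1.24), and FGF9 also 1 higher and 2 lower. On top of FGF8b, BAY-876 left 0 higher and 2 lower (median -0.15, and -0.26 in voom). Cilp fell from 4.87 to 0.0486 RPKM there, while Sox9 itself rose. The 2 genes that fell with BAY-876 were Cilp and Col11a1, and under FGF1 both rose, as did Sox9. Their relation to Sox9 was not tested.

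Other transcription factors of limb and craniofacial mesenchyme numbered 37, of which 27 were tested. FGF1 left 8 higher and 4 lower (median 0.10), with the tendon factor Scx rising from 0.264 to 1.88 RPKM (1.64) and Snai1, a factor of epithelial-mesenchymal transition, from 2.65 to 7.95 (1.42). FGF8b left 6 higher and 16 lower (median -0.61, against 0.08 over all genes) and FGF9 8 higher and 15 lower (median -0.64, against 0.09). Prrx2, the close relative of Prrx1, fell from 31.9 RPKM in control to 5.20 under FGF8b (-2.50) and 4.85 under FGF9 (-2.60), a larger drop than that of Prrx1 itself (-0.63 and -0.56) that was not tested against it. Tbx2, a T-box repressor, rose from 0.123 to 2.50 under FGF8b (2.26) and fell back to 0.185 with BAY-876 (-2.13). On top of FGF8b, BAY-876 left 5 higher and 13 lower (median -0.18), with Zeb1 falling from 21.4 to 8.07 RPKM (-1.35).

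ID proteins keep E proteins away from TWIST and similar factors, and 7 of the 9 genes of this group were tested. FGF1 left 3 lower and 1 higher, Tcf12, which did not pass after scaling. Under FGF1 Id4 fell from 2.63 to 0.984 RPKM (-1.08), Id2 from 32.7 to 15.5 (-1.05) and Id1 from 8.13 to 3.90 (-0.97). FGF8b and FGF9 each left 2 higher and 4 lower of the 7, where 64.4% and 65.7% of all genes were called. Under FGF8b Id2 fell to 8.91 RPKM (-1.82) and Id3 from 76.4 to 26.0 (-1.53), while Tcf4, an E protein that pairs with TWIST1, rose from 43.1 to 64.8 (0.59). BAY-876 on top of FGF8b left 1 higher and 3 lower, with Tcf4 falling to 29.8 (-1.11) and Id3 to 13.5 (-0.95). FGF9 against FGF8b called 0 genes of these 5 lists. Every list gene named with a log2 change passed limma's threshold in that comparison.

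**Figure D4:**
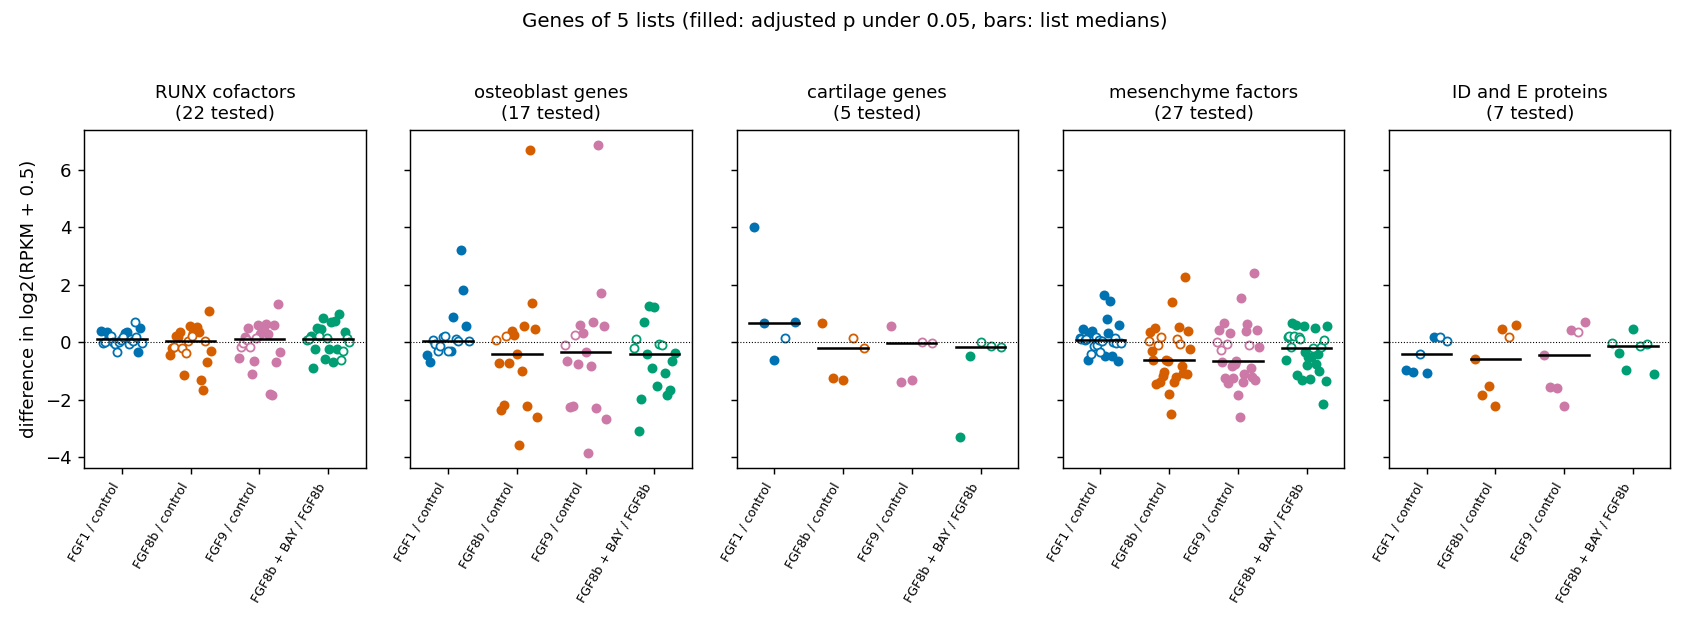
Log2 changes of the tested genes of 5 lists in 4 comparisons. Filled points passed an adjusted p of 0.05 and the bar is the list median. The other mesenchymal transcription factors have a median of 0.10 under FGF1 and -0.61 under FGF8b, and the cartilage list has only 5 points.

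For the 4 genes whose group means spanned at least 1 on the log2 scale, the genes whose log2 levels tracked them most closely over the 15 libraries were sought among 3414 genes. Since the libraries share groups and treatment, the correlations carry no p. Nearest to Runx1 were Eno1, a glycolytic enzyme (Pearson r = 0.953), Fli1, an ETS factor (0.941), and Plxna4, a semaphorin receptor (0.918). Eno1 stood at 138.4 RPKM for control, 395.1 for FGF1, 248.9 for FGF8b, 237.3 for FGF9 and 450.0 for the BAY-876 libraries, and it was also among the 3 nearest to Sox9 (0.937). Nearest to Sox9 was Rasa3, a GTPase-activating protein (0.945). Nearest to Twist2 were Slc5a6, a vitamin transporter (0.964), the lysosomal sialidase Neu1 (0.936) and Vps11, a subunit of endosomal tethering complexes (0.932). Nearest to Prrx1 were Arhgap29 (0.984), the actin regulator Enah (0.983) and Igfbp5, an insulin-like growth factor binding protein (0.982), which fell from 14.5 RPKM in control to 0.355 with BAY-876.

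The labelled cell type was checked against markers. All 14 brown preadipocyte and progenitor genes passed the level filter, with the brown lineage genes Ebf2, Zic1 and Lhx8 present in every group. Prdm16, of the same list, had a mean of only 0.226 RPKM in control, 0.507 under FGF1 and 1.07 under FGF9. The summed level of the 14 was 2543 to 2816 RPKM for control, 1790 to 1812 for FGF1 and 1356 to 1663 for FGF8b. It was 1245 to 1530 for FGF9 and 1638 to 1766 for BAY-876. Pdgfra, the progenitor receptor, stood at 276.2 RPKM in control, 39.9 under FGF8b, 30.4 under FGF9 and 21.5 with BAY-876, falling in the groups where Prrx1 also fell most. Vim, at 932.1 RPKM in control, made most of the summed progenitor level under FGF8b (1047) and with BAY-876 (1522). Under FGF8b 4 of the 14 were higher and 7 lower, against 37.8% and 26.6% of all genes. BAY-876 on top of FGF8b left 3 higher and 7 lower, against 22.5% and 34.8%. Ly6a fell from 1015 RPKM in control to 52.7 under FGF8b and 18.6 with BAY-876, and Dlk1 from 201.0 to 101.6 and 16.9. By group mean, Prdm16 rose under FGF8b from 0.226 to 1.01 RPKM (1.05), Cebpb from 3.19 to 6.87 and Thy1 from 37.8 to 62.8. With BAY-876 added, Prdm16 was at 0.504 RPKM, Cebpb at 5.83 and Thy1 at 23.7. Of 10 mature adipocyte genes 3 passed, and Lep and Cfd were listed at 0. Those 3 were Fabp4 at 5.51 to 8.05 RPKM in the group means, Plin4 at 0.443 to 3.53 and Lipe at 1.02 to 1.89. Of 12 blood genes 4 passed, with a summed level of 3.25 to 4.56 RPKM for control, 4.01 to 4.38 for FGF1, 12.8 to 15.04 for FGF8b, 13.3 to 15.03 for FGF9 and 6.74 to 8.03 for BAY-876. Most of the rise was Cd53, a leukocyte tetraspanin, at 0.304 RPKM in control, 9.22 under FGF8b, 9.34 under FGF9 and 1.75 with BAY-876. The other 3 that passed were Cd68 at 0.625 to 0.888 RPKM in the group means, Csf1r at 0.888 to 1.29 and Itgam at 1.74 to 3.33. The pan-leukocyte gene Ptprc reached 0.0128 RPKM at most, Spi1 0.0278, and Cd3e and Emr1 were listed at 0.

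Neural crest genes passed in 5 of 8 cases and summed to 12.7 to 12.8 RPKM for control, 5.67 to 7.14 for FGF1, 3.28 to 4.18 for FGF8b, 3.75 to 4.34 for FGF9 and 2.59 to 2.68 for BAY-876. Most of the drop was Ngfr, from 6.99 RPKM in control to 0.641 under FGF1 and 0.124 under FGF8b, and S100b, from 2.72 to 1.71 and 0.563, whereas Tfap2a rose under FGF1 from 1.41 to 2.60. Sox10, a defining gene, was at 0.278 at most. Endothelial genes passed in 3 of 8 cases and summed to 7.66 to 8.98, 1.68 to 1.77, 0.404 to 0.590, 0.412 to 0.541 and 1.84 to 2.11 in the same order. Kdr fell from 6.18 RPKM in control to 0.709 under FGF1 (-2.46) and to 0.0284 under FGF8b, and Tek from 1.94 to 0.937 (-0.76) and 0.290 (-1.63), while Vwf rose from 0.0117 under FGF8b to 1.11 with BAY-876. The defining genes Pecam1 and Cdh5 were at most 0.129 and 0.0760 RPKM. Mural genes passed in 4 of 8 cases, and their sums ran from 4.22 to 8.33 RPKM over all libraries. Of 11 muscle genes only Acta1 passed, and Myod1, Myog and Myf5 were listed at 0. The part of these other genes in the changes above was not tested.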

How the data were processed

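The deposited table gives 168326 transcript lines with values written with a decimal comma in 15 columns, all matched to samples by name. The unit is not named. The low values are whole multiples of 1 step per library and transcript, and the authors' values were therefore read as RPKM. The submitters' processing notes name CASAVA and bcl2fastq. Which aligner, build or annotation was used is not given in the sources used here. Lines without a gene symbol (23172) were left out. Each gene was its line with the highest mean, and 13869 genes that reached 0.5 RPKM in 3 or more libraries were tested.

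The test was limma 3.58.1 (R 4.3.3) on log2(RPKM + 0.5) (empirical Bayes, with the mean-variance trend on) over 15 libraries in 5 groups of 3 (10 residual degrees of freedom), two-sided, with Benjamini-Hochberg adjustment over all tested genes and a threshold of 0.05. Whole reads were inferred for 100% of the 13869 tested genes (tolerance 0.02 read) and used for voom and for exact counting intervals. The shortest transcript length that gave whole reads in the libraries was taken. It equalled the annotated length for 90.8% of the 3475 Ensembl lines that could be compared, so some read numbers may be wrong. Alternatives were other pseudocounts (0.1 and 1), no filter and a filter of 1 RPKM, trimmed-mean scaling (30% trim), summed lines, voom, only the groups compared, a replicate block and leaving out each library; taking the highest RefSeq line was added after seeing the data. The script was tested on simulated data. Other software was Python 3.11.15 with pandas 2.3.3, numpy 2.4.6, scipy 1.17.1 and matplotlib 3.10.9.

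All 10 genes were named in every comparison. From each list up to 4 genes were eligible, those of largest change that passed the threshold and whose libraries did not overlap between groups, and genes at or near 0 were chosen after their values were seen. The members and lists were chosen with earlier results of these data known. No consistent pairing of the libraries by replicate number was seen, and the labels do not say whether some were paired. The correlation of deviations was over 0.1 in 11 of the 30 pairs with equal numbers, and ranged from -0.443 to 0.534.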

Additional observations from a re-analysis of the deposited data

How the results depend on the processing

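Over all alternatives, 863 of 896 values of the 8 tested genes kept their side of the threshold, 29 lost the call and 4 gained it. The sign turned in 13, all with a log2 change of at most 0.033 in size in the main values and 0 of them called in either fit. Calls near the threshold were those of Runx2, Twist2 and Msx1 under FGF8b, Runx2 under FGF9, Prrx1 under FGF1 and Twist2 between FGF8b and FGF1. Leaving out 1 library moved the genes called in FGF8b against control between 5 and 8 of 8, with 5 without control replicate 1. The number of all genes called between FGF9 and FGF8b was unstable: 41 (28 higher, 13 lower) became 27 (17 higher) with a pseudocount of 0.1, 62 (49 higher) in voom and 70 (52 higher) with the highest RefSeq line. Without the filter 8 were lower. In limma with only these 2 groups it was 0, with 0 higher and 0 lower, while 804 genes had an unadjusted p under 0.05. That fit has fewer libraries. Leaving out 1 library gave 6 to 35 called, 4 to 24 higher and 2 to 11 lower. The causes of the other moves were not tested.

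Replicate numbers showed no consistent pairing: in every other group, only 2 of 15 libraries lay nearest to the library of equal number. The replicate block gave 4850 called genes for FGF1, 9016 for FGF8b and 9195 for FGF9 against control. It gave 8026 for BAY-876 on top of FGF8b and 30 for FGF9 against FGF8b. It changed no call of the 8 genes. Trimmed-mean scaling moved the medians of the 5 gene lists by at most 0.08. Depth limits Msx2, and the filter on low values kept Runx3 out of the tests.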
